A study of Homo sapiens with 6 samples.

Results

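The protein core of the spliceosome was followed through 39 genes, which encode the proteins of the small nuclear ribonucleoprotein particles (snRNPs) and of the Prp19 complex. The genes were chosen by name from what is known of these particles, without the SF3A and SF3B proteins of the U2 particle, by a rule that reads no measured value. The deposited table held all 39 among its 57150 genes, with 1 row for each symbol. By particle, 8 of them belong to the Sm ring, 3 to U1, 2 to U2, 6 to the LSm ring, 3 to U4/U6, 7 to U5, 3 to the tri-snRNP and the B complex, 3 to the minor U11/U12 particle and 4 to the Prp19 complex.

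The RNA came from K562, a human leukemia line established from a patient with chronic myeloid leukemia and used as a model of erythroid cells. In 3 pools, siRNAs that each match both αCP1 and αCP2 were transfected (αCP1/2 co-depletion), and another 3 pools received control siRNAs. αCP1 and αCP2 are poly(C)-binding proteins encoded by PCBP1 and PCBP2, and the study asked how their loss alters splicing. Cells were collected 72 h after transfection, and libraries from a TruSeq kit were run as paired reads on 1 HiSeq lane. All pools shared the line, the transfection and the harvest time, and the labels set the groups apart by the siRNAs alone. The cells were pools after transient depletion, in which residual αCP protein can remain, and part of the libraries had been made for an earlier study.

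An intron is removed by snRNPs that assemble on it in steps. The U1 particle pairs with the 5′ splice site and the U2 particle with the branch point, then U4, U5 and U6 join as a preformed tri-snRNP, and the Prp19 complex enters as the spliceosome is activated. Each particle has a small RNA and a ring of small proteins around it: the Sm ring on U1, U2, U4 and U5, and the related LSm ring on U6. Because nearly every intron needs these particles, dividing cells of nearly all types transcribe most of the genes for their proteins.

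The table gave 1 FPKM and 1 estimated fragment count per gene for each group. FPKM is a level per length, in which fragments are scaled to transcript length and to a library size. The 2 columns have the labels KD and CTRL and are called the KD column and the CTRL column here. With 1 value per gene and group the spread between the 3 pools could not be computed from these columns, so no test was run and a gene is said to be higher or lower in a column, not changed by the siRNAs. Each ratio is the log2 of FPKM + 1, KD column over CTRL column, and was computed for 13741 genes whose mean FPKM reached 1. They were set beside the log2 ratio of count shares, in which a count is divided by its column's total and a 95% exact (Clopper-Pearson) interval is given. These intervals cover counting error only, since fragments amplified by PCR and not marked by molecular identifiers are not independent molecules. The totals were 13699340 counts in the KD column and 11680567 in the CTRL column. Both were smaller than the number of mapped pairs that the paper lists for any single library, and how the libraries enter the columns is not stated. FPKM was not scaled to these totals, since the median log2 change of count per FPKM between the columns was only 0.0029. Equal counts in both columns give a count-share ratio of -0.23 (as for RNU12), an offset that all genes have in common on that scale.

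The labels were checked first. PCBP1 had 184.1 FPKM (KD) and 187.8 FPKM (CTRL), with a log2 ratio of -0.03, and -0.25 by count share. PCBP2 had 531 and 342 FPKM, with a log2 ratio of 0.63, and 0.37 by count share. Neither target was markedly lower in the KD column, and PCBP2 was more than 1.5-fold higher there by FPKM, so these values did not bear out the labels. Every direction below is therefore one between columns as labelled. Of 15 erythroid marker genes, 9 were listed at 0 in both columns, among them GATA1, TAL1, KLF1 and HBZ, and 3 had an FPKM of at least 1 in both; the summed FPKM was 162 and 43.4. Of 8 epithelial genes, 5 had an FPKM of at least 1 in both columns, 2 (ESRP1 and KRT19) were at 0, and the summed FPKM was 4370 and 3190. Most defining erythroid markers of K562 were thus absent, HBE1 being the main exception (153 and 35.4 FPKM), and the part of these lists in the snRNP values was not tested.

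Some of these genes share sequence with another gene, which bears on how their fragments could be counted. Of the 39, 27 had no 100-nt window in common with a transcript of another gene in GENCODE release 44, and 7 shared more than 5% of their windows. The runs shown are the longest that the coding sequence of SNRPG and of SNRPB had in common with a listed relative, chosen because they bear on the counts of small Sm genes, and they are written 5′ to 3′ on the strand of the member. The SNRPG run of 115 nt is also in the processed pseudogene SNRPGP10, and covers exon sequence within chr2:70515240-70520756 (GRCh37, minus strand) in 3 blocks. The SNRPB run of 32 nt is the longest shared with its paralog SNRPN, within chr20:2446457-2448275 (minus strand) in 2 blocks. Both lie in exons of the coding sequence.
SNRPG: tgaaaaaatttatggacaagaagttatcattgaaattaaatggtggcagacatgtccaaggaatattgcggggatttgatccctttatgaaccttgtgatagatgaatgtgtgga
SNRPB: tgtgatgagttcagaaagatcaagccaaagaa

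Few counts stood on the pseudogenes themselves. Of 41 rows named as pseudogenes of members, 36 were at 0 in both columns and 3 passed the filter. SNRPEP4 had 16 and 15 counts in the KD and CTRL columns, against 831 and 889 for SNRPE. The longest run that SNRPEP4 shared with the coding sequence of SNRPE was 188 nt, longer than a 100-nt read. SNRPGP10 had 2 and 4 counts and SNRPGP4 had 1 and 1, against 1106 and 1058 for SNRPG. How fragments from identical stretches were divided among these rows is not given in the sources used here. A run of 32 nt is shorter than the 100-nt reads, so no whole read from the coding sequence of SNRPB matches that of SNRPN exactly. SNRPB did share 6.05% of its windows with a different gene, ENSG00000256566. Mapping allowed up to 3 mismatches per read, so exact runs and windows cannot settle whether reads of related genes were exchanged. SNRPN is uncertain for another reason: 41.5% of its windows were shared, most with SNURF, which is transcribed from the same locus. SNRPA1 shared 22.2% of its windows, most with its pseudogene SNRPA1P1, and SNRPD3 shared 12.1%. SNRPA1P1 was not among the 41 pseudogene rows, so its counts are unknown. The rows of 20 members had a locus in common with other genes of the table, and 19 stood alone.

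These genes were well expressed. All 39 passed the filter, and 38 had an FPKM over 5 in both columns, the exception being SNRPN. Their median FPKM was 84.4 in the KD column and 82.3 in the CTRL column, against 10.9 and 10.5 for all genes past the filter. The level was over 100 FPKM for 19 members in the KD column and for 15 in the CTRL column. Counts per member ran from 35.8 to 6761, with medians of 1106 and 1058, and together the members took 0.504% and 0.492% of the counts. The order of levels was much the same in both columns, with a Spearman correlation of 0.90 over the 39 genes, whose values share gene lengths and annotation between the columns.

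**Figure D1:**
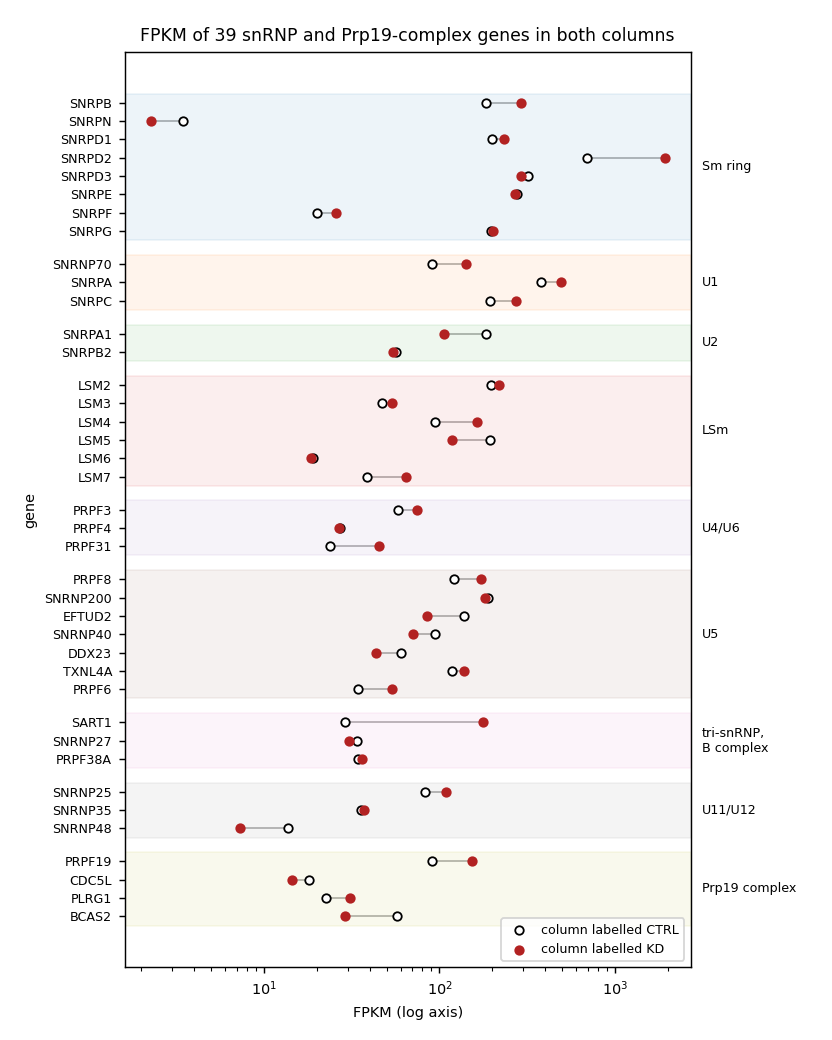
FPKM on a log axis for each of the 39 genes, grouped by particle, in the KD column (filled) and the CTRL column (open), 1 value per column. SNRPD2 stands highest in both columns, SART1 shows the widest gap (176 against 28.8), and SNRPN is lowest at 2.26 and 3.45.

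As a set, the members lay slightly above 0. Their median log2 ratio was 0.16, with 23 above 0 and 16 below, against a median of 0.01 for all genes, whose middle 50% ran from -0.34 to 0.45. At 1.5-fold or more, 9 members were higher in the KD column, where 19.6% of all genes were, and 5 were lower, where 12.4% were. These are shares close to those of all genes. At 2-fold or more, 2 members were higher, SART1 and SNRPD2, beside 8.51% of all genes, and 0 were lower, beside 3.27%.

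Count shares moved this picture downward as they did for all genes. On that scale the median was -0.11 for the members and -0.21 for all genes. At 1.5-fold, 3 members were higher and 6 lower, beside 15.1% and 26.6% of all genes. At 2-fold, 2 members were higher and 3 lower, beside 6.92% and 9.83%. The split of all genes past 2-fold turned with the scale, since 72.2% of them were higher in the KD column by FPKM but 41.3% by count shares. The interval of the count share lay above 0 for 13 members, below 0 for 18 and across 0 for the others. These intervals were not computed for all genes, whose median on this scale was -0.21, so the 13 and 18 have no background share. The sign was the same on both scales for 31 members and differed for 8: SNRPD1, SNRPG, LSM2, LSM3, PRPF8, TXNL4A, PRPF38A and SNRNP35. With count shares centred on the median of all genes, only PRPF38A of these 8 was below 0 (-0.23). The others then lay between 0.009 (SNRNP35) and 0.21 (TXNL4A), on the same side as by FPKM. The third scale, with a trend in GC content and gene length removed, placed 5 members at least 1.5-fold higher and 3 at least 1.5-fold lower, beside 13.0% and 12.6% of all genes. SART1 and SNRPD2 were past 1.5-fold upward on all 3 scales, and SNRPA1, EFTUD2 and BCAS2 were past it downward on all 3.

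**Figure D2:**
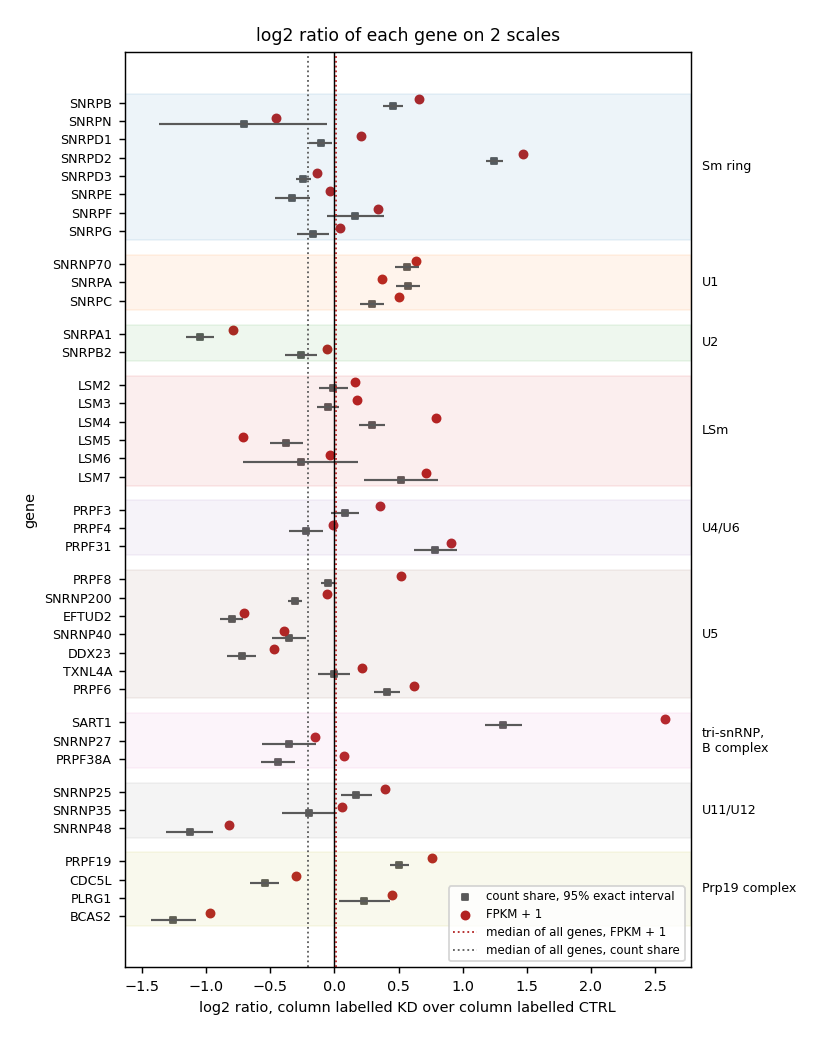
Log2 ratio of the KD column over the CTRL column for each gene, from FPKM + 1 (circles) and from count shares (squares, with the 95% exact interval for counting error), and dotted lines at the medians of all genes. SART1 and SNRPD2 stand to the right of the other genes on both scales, while the squares of BCAS2, SNRNP48 and SNRPA1 lie below -1.

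The Sm ring is a heptamer of small proteins that encircles the U-rich site of the snRNA. SNRPD2, one of its subunits, stood first of all members in both columns, at 1925 FPKM in the KD column and 694 in the CTRL column. It was 2.77-fold higher by FPKM (log2 ratio 1.47) and 2.37-fold higher in counts per total, from 6761 and 2428 counts (log2 1.25, interval 1.18 to 1.31). SNRPD2 (ENSG00000125743) was listed in the table on chromosome 19 from 46190711 to 46207247 in hg19, a locus with 1 further row, and it shared no 100-nt window with another gene. SNRPB, which encodes the SmB and SmB′ proteins, followed at 291 FPKM against 184 (log2 ratio 0.66), with a count-share interval of 0.38 to 0.53. The other ring subunits lay nearer to 0. SNRPD1 had 232 FPKM in the KD column and 200.4 in the CTRL column, and its log2 ratio was 0.21 by FPKM but -0.11 by count share. SNRPD3, which pairs with SmB in the assembled ring, had 291 and 321 (log2 ratio -0.14). SNRPE stood at 269 and 276 (-0.03), and SNRPG at 203 and 197 (0.04). SNRPF was the least abundant of the ubiquitous subunits, at 25.9 and 20.2 FPKM (log2 ratio 0.34). Its count-share interval crossed 0 (-0.06 to 0.39) but lay above the median of all genes on that scale, -0.21. SNRPN, a paralog of SNRPB used mainly in neurons, had 2.26 and 3.45 FPKM from 35.8 and 49.9 counts, and its log2 ratio of -0.45 stood beside the widest count-share interval of all members (-1.36 to -0.06).

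The ring is built with 1 copy of each subunit, but the transcript levels were not equal. Leaving out SNRPN, FPKM values of the 7 genes spanned 74.5-fold in the KD column and 34.4-fold in the CTRL column. The group's median log2 ratio was 0.13 by FPKM, -0.14 by count share and 0.32 with the trend removed. SNRPD2 and SNRPB were past 1.5-fold upward by FPKM, and no gene of the ring was past it downward on that scale. SNRPN was past it downward by count share (-0.70) and, with a pseudocount of 0.1 on FPKM, at -0.59.

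The 3 proteins particular to U1, the particle that recognises the 5′ splice site, were all higher in the KD column. SNRNP70, which binds the first stem-loop of U1 RNA, had 141 FPKM against 90.6 (log2 ratio 0.63). SNRPA, which binds another U1 stem-loop, was the second most abundant member in both columns, at 491 and 380 FPKM (0.37). SNRPC, whose zinc finger steadies the pairing of U1 with the splice site, had 275 and 193 (0.50). All 3 count-share intervals lay above 0, the lowest bound being 0.20 for SNRPC. With the GC and length trend removed, SNRNP70 came to 0.09, SNRPA to 0.01 and SNRPC to 0.42, so only SNRPC stayed clear of 0 on that scale.

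For U2, both proteins lay below 0. SNRPA1 had 106 FPKM in the KD column and 184 in the CTRL column, from 1065 and 1876 counts, a log2 ratio of -0.79 by FPKM and -1.05 by count share (-1.16 to -0.94). SNRPB2, its partner on the U2 stem-loop, was close to even at 54.1 and 56.3 FPKM (-0.05), and turned to 0.19 with the trend removed. SNRPA1 thus carried the group's median of -0.42, and it kept its sign on every scale, from -1.05 to -0.66. SNRPA and SNRPB2 are related RNA-binding proteins of U1 and U2, and the longest run their coding sequences had in common was 23 nt.

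The LSm ring binds the 3′ end of U6 RNA, and most of its subunits also form a cytoplasmic ring that acts in mRNA decay. LSM4 had 165 FPKM in the KD column and 94.5 in the CTRL column (log2 ratio 0.79), and LSM7 had 64.4 and 38.8 (0.71). Both were past 1.5-fold by FPKM, but with the trend removed they came to 0.25 and 0.24. LSM5 stood on the other side, at 118 and 194 FPKM (-0.71), although its counts of 940 and 1040 gave only -0.38 by count share. LSM2 (219 and 196 FPKM, 0.16) and LSM3 (53.4 and 47.2 FPKM, 0.17) lay between. LSM6 was the least abundant at 18.5 and 19.0 FPKM, and its 85 and 87 counts gave a count-share interval of -0.71 to 0.19, too wide to place it. Subunits of 1 ring therefore lay on both sides of 0.

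Of the U4/U6 proteins, PRPF31, which binds U4 RNA, is needed to form the tri-snRNP and is mutated in some families with retinitis pigmentosa, had 45.3 FPKM against 23.7 in the CTRL column. Its log2 ratio was 0.91, and 0.78 by count share (0.62 to 0.95). PRPF3 had 74.6 and 58.1 FPKM (0.36), with a count-share interval of -0.03 to 0.19, above the median of all genes on that scale (-0.21). PRPF4, its binding partner, had 26.8 and 27.0 FPKM (-0.01). PRPF31 was 1 of the 7 members in the highest quartile of GC content, and with the trend removed it came to 0.44, close to the 0.40 of PRPF3.

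The U5 proteins form the catalytic scaffold. PRPF8, the large protein around the active site, had 173 FPKM in the KD column and 120 in the CTRL column (log2 ratio 0.52), but its counts, 6377 and 5632, gave a share ratio of -0.05 (-0.10 to 0.00). SNRNP200, the helicase that unwinds U4 from U6, was near even by FPKM at 182 and 189 (-0.06). Its count-share interval, -0.36 to -0.26, lay below the median of all genes on that scale (-0.21). EFTUD2, the GTPase that controls that helicase, had 84.4 and 138 FPKM, a log2 ratio of -0.70 by FPKM, -0.80 by count share and -0.69 with the trend removed. DDX23, the helicase that exchanges U1 for U6 at the 5′ splice site, had 43.6 and 60.7 FPKM (-0.47), and by count share it was past 1.5-fold (-0.72). SNRNP40, a WD-repeat protein, had 71.1 and 93.8 FPKM (-0.40). PRPF6, which bridges U5 and U4/U6, was higher in the KD column at 53.4 against 34.4 (0.62), and came to 0.26 without the trend. TXNL4A, a small thioredoxin-fold protein, had 137 and 118 FPKM (0.21), and its share ratio was -0.0018. Within U5, 3 genes were above 0 and 4 below, and the 4 below (EFTUD2, DDX23, SNRNP40 and SNRNP200) were below 0 on all 3 scales.

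SART1 had the highest log2 ratio by FPKM, while by count share its interval overlapped that of SNRPD2. This protein of the tri-snRNP, needed for it to join the spliceosome, had 176 FPKM in the KD column and 28.8 in the CTRL column, a 6.13-fold difference (log2 ratio 2.58). Its place in the order of levels was 11 of 39 in the KD column and 31 of 39 in the CTRL column. Counts gave less than that: 1556 against 533, which is 2.49-fold per total (log2 1.31, interval 1.17 to 1.46). SART1 (ENSG00000175467) was listed on chromosome 11 from 65729159 to 65747299, alone at its locus, with no 100-nt window shared with another gene. SNRNP27, another tri-snRNP protein, had 30.5 and 33.9 FPKM (-0.15), and PRPF38A, a B complex protein, had 36.4 and 34.5 (0.07). Both had count-share intervals below 0, from -0.57 to -0.14 and from -0.57 to -0.31. The interval of SNRNP27 included the median of all genes on that scale, -0.21.

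The U11/U12 particle serves the rare minor introns. SNRNP48, one of its proteins, had 7.30 FPKM in the KD column and 13.6 in the CTRL column, from 368 and 686 counts (log2 ratio -0.82 by FPKM, -1.13 by count share). SNRNP25 had 109 and 82.3 FPKM (0.40), and SNRNP35, the minor counterpart of SNRNP70, had 37.2 and 35.7 (0.06). The Prp19 complex was split as well. PRPF19, a ubiquitin ligase that gives the complex its name, had 154 and 90.6 FPKM (log2 ratio 0.76), and PLRG1, a WD-repeat protein, had 31.1 and 22.5 (0.45). CDC5L, which has Myb-type DNA-binding repeats, had 14.4 and 17.9 (-0.30). BCAS2, a small subunit of the complex, had the lowest log2 ratio of the 39 genes at -0.97, from 29.0 and 57.5 FPKM, and -1.25 by count share (-1.43 to -1.08). By FPKM the complex held a subunit past 1.5-fold upward and another past it downward, with a median of 0.08, but PRPF19 was under that threshold by count share (0.51) and with the trend removed (0.50).

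Base composition went with these ratios. Over the 13298 genes whose exon GC content could be read from the annotation, the Spearman correlation of GC content with the log2 ratio was 0.45, and over the 39 members it was 0.64 (Pearson 0.61). All points come from the same pair of columns. By quartiles of GC content, the medians of all genes were -0.24, -0.12, 0.09 and 0.48 from lowest to highest. The members followed the same order, with medians of -0.05 (n = 11), -0.03 (n = 9), 0.19 (n = 12) and 0.71 (n = 7). All 7 in the highest quartile were above 0: SNRNP70, SNRPA, LSM4, LSM7, PRPF31, PRPF6 and SART1. Of all genes in that quartile, 43.3% were at least 1.5-fold higher in the KD column and 4.30% at least 1.5-fold lower. Set against the median of their own quartile, 26 members lay above and 13 below. SNRPB (45.6% GC), SNRPF (35.4%) and PLRG1 (37.2%) were above 0 in the lower quartiles, and with the trend removed each was past 1.5-fold, at 0.73, 0.61 and 0.68. EFTUD2 (48.7% GC) and DDX23 (50.7%) were below 0 in the third quartile. Whether the GC dependence arose in the libraries or in the cells was not tested.

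**Figure D3:**
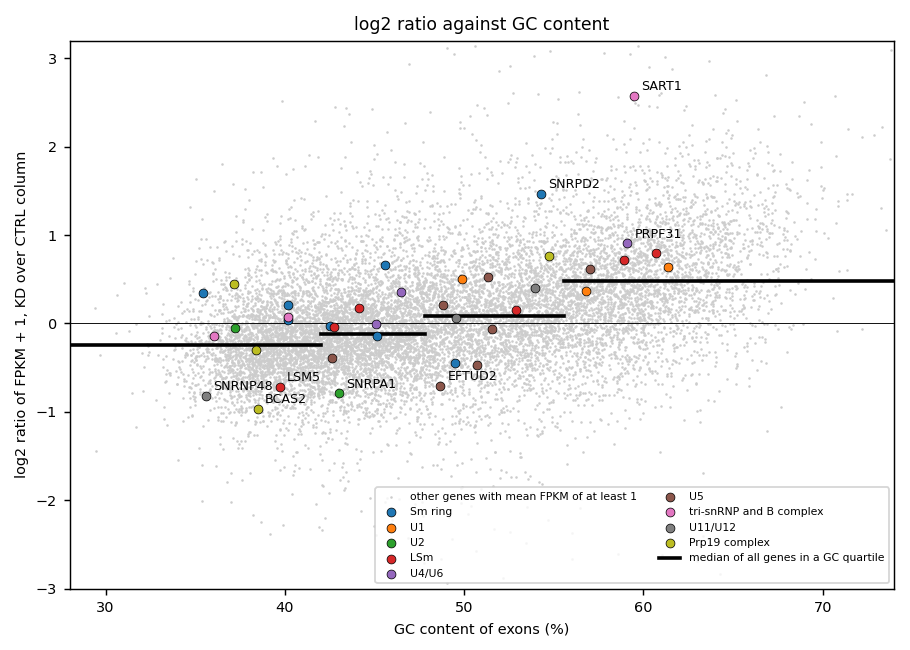
Log2 ratio of FPKM + 1 (KD column over CTRL) against GC content of exons in percent, with other genes in grey, the 39 genes coloured by particle and black bars at the median of all genes in each quartile of GC content; a few genes lie outside the axes. The bars rise from -0.24 to 0.48, all 7 members in the highest quartile are above 0, and SART1 and SNRPD2 lie well above the bar of their quartile.

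FPKM and counts can part when the fragments of a gene are assigned to other transcripts. A gene's FPKM is summed over its transcripts, each scaled by its own length, so the count per FPKM follows the length of the transcripts to which fragments were assigned. The change of count per FPKM between the columns, relative to the median of 9534 genes with at least 100 counts in both, lay between -0.05 and 0.06 in log2 for the middle 50% of genes. Of the 37 members that could be measured, 4 had a count per FPKM at least 1.2-fold smaller in the KD column (6.37% of all genes did) and 3 had one at least 1.2-fold larger (6.77% did). For SART1 it was 8.82 against 18.5 (log2 -1.07), and for PRPF8 36.8 against 46.8 (-0.35). PRPF38A (-0.29) and LSM4 (-0.28) lay just past the threshold. In these genes the FPKM ratio was above the count ratio. For LSM5 it was 7.99 against 5.37 (0.57), and for SNRPA 5.48 against 4.06 (0.43), with SNRNP40 just past the threshold (0.27), so there the FPKM ratio was the lower of the pair. In GENCODE release 44, SART1 had 8 transcripts of 390 to 3557 nt, PRPF8 22 of 310 to 7445 nt, LSM5 10 of 504 to 2214 nt and SNRPA 11 of 336 to 1277 nt. Values by transcript were not analysed here. For SNRPD2 the count per FPKM was 3.51 against 3.50, so its FPKM and count ratios differed only by the scaling of the columns.

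**Figure D4:**
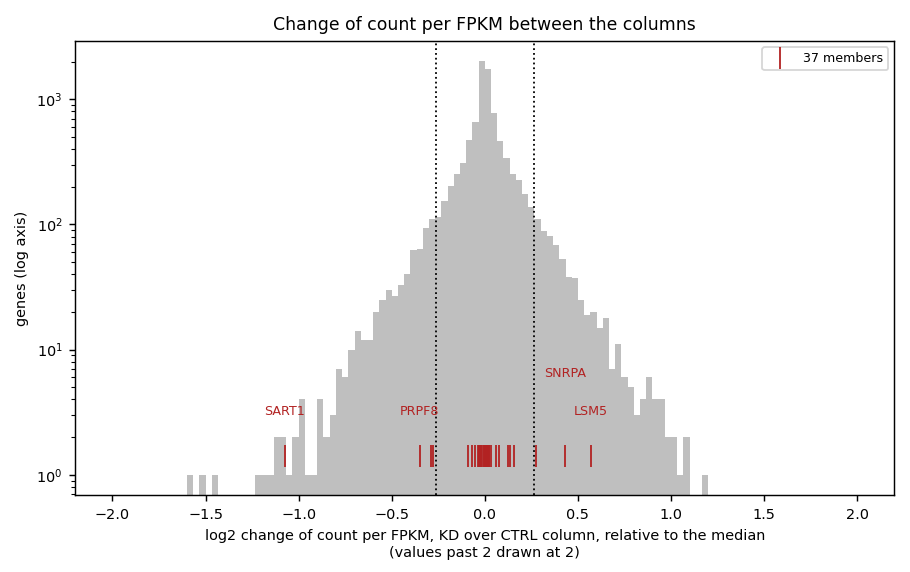
Histogram of the log2 change of count per FPKM (KD column over CTRL, relative to the median) over genes with at least 100 counts in both columns, on a log axis, with 37 members as red ticks and dotted lines at 1.2-fold. SART1 at -1.07 lies far from the other members, and LSM5 at 0.57 and SNRPA at 0.43 are the farthest on the other side.

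The promoters of the pair of genes past 2-fold by FPKM are shown, so the pair was picked by its measured values. By count share BCAS2, SNRNP48 and SNRPA1 were past 2-fold downward as well, and their promoters are not shown. Each is the window of 300 bases around the annotated start, as RefSeq gives it for GRCh38.p14, and capitals mark letters of the motifs searched on both strands: CCGGAAG (the core bound by ETS factors), AAGATGG (YY1), GCATGCG (NRF1), CCAAT and GGGCGG (the GC box). SART1 is at chr11:65961484-65961783 (plus strand), with 1 ETS core and 2 NRF1 cores that overlap, 1 on each strand. SNRPD2 is at chr19:45692267-45692566 (minus strand), with 1 ETS core, 3 CCAAT boxes and 1 GC box.
SART1: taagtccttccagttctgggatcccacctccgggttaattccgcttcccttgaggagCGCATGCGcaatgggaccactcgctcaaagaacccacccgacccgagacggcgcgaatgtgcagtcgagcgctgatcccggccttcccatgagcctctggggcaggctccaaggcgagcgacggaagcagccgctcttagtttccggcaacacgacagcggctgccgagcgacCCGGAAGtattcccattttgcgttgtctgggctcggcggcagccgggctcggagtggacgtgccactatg
SNRPD2: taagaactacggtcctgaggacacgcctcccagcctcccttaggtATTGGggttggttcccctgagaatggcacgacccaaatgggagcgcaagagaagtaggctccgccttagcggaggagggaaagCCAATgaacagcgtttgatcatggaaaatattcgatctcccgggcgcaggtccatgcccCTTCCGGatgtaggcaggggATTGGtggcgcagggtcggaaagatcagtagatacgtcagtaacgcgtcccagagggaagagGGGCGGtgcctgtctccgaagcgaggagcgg

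Promoters were matched for 35 of the 39 members and for 8692 genes past the filter. The ETS core was in 13 member promoters (37.1%), against 20.5% of the genes past the filter and 10.7% of all 27305 promoters. Besides the pair shown, it was in those of SNRPA1, SNRPB, SNRPB2, SNRPC, SNRPE, SNRPG, LSM5, PRPF6, PLRG1, SNRNP27 and SNRNP200, which lay on both sides of 0 in the comparison. CCAAT was in 48.6% against 37.2% and 35.7%, the GC box in 65.7% against 71.5% and 44.6%, the YY1 core in 8.57% against 8.08% and 6.06%, and the NRF1 core in 8.57% against 6.90% and 4.13%. These are matches of letters in a window, not binding sites.

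Proteins around the snRNPs were counted in the same way, beside the same shares of all genes at 1.5-fold (19.6% higher and 12.4% lower by FPKM, 15.1% and 26.6% by count share). Of 18 assembly factors, which load the Sm ring and move snRNPs and their RNA in and out of the nucleus, 2 were at least 1.5-fold higher and 1 lower, with a median log2 ratio of 0.03. By count share, 1 was higher and 2 lower, with a median of -0.06. GEMIN8, a subunit of the SMN complex, had 13.6 and 5.59 FPKM from 168 and 72 counts (1.15). PHAX, the export adaptor of newly made snRNA, had 15.7 and 38.1 FPKM (-1.23), but by count share -0.50, and its count per FPKM was larger by 1.01 in log2. SMN1 and SMN2 are nearly identical copies, so their separate values are uncertain. Of 12 further snRNP proteins measured (LSM8 was not analysed here), 1 was at least 1.5-fold higher and 0 lower, with a median of 0.31. By count share, 1 was higher and 3 were lower (LSM11, RNPC3 and PPIH), with a median of 0.11. The highest was ZMAT5, a U11/U12 protein (0.88), and the lowest PPIH, a cyclophilin of the tri-snRNP (-0.40).

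Of 21 further proteins related to the Prp19 complex and the B complex, 3 were higher and 2 lower by 1.5-fold, with a median of 0.02. By count share, 2 were higher and 4 lower, with a median of -0.19. The helicase AQR, which binds introns, had 20.4 and 5.54 FPKM (1.71), but 428 and 328 counts gave 0.15 by count share, with a count per FPKM smaller by a log2 change of -1.50. UBL5, a ubiquitin-like protein, had 415 and 198 FPKM (1.07; 0.80 by count share). Of 8 helicases that drive the splicing steps, 1 was higher and 1 lower by FPKM, with a median of -0.06. By count share, 0 were higher and 4 were lower (DDX41, DDX46, DHX15 and DHX8), with a median of -0.44. The one past 1.5-fold downward on both scales was DDX46, which acts with U2 at the branch point, at 30.7 and 83.4 FPKM from 1612 and 4059 counts (log2 ratio -1.41, and -1.56 by count share). The RNA parts of the particles could not be followed, since 12 of 13 spliceosomal snRNA genes in the table were at 0 in both columns and RNU12 had 2 counts in each. The library kit selects polyadenylated RNA, and mature spliceosomal snRNAs lack a poly(A) tail.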

How the data were processed

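RNA of 6 libraries, 3 per group, was sequenced as paired 100-nt reads from TruSeq libraries. Per the submitters' processing notes, the authors mapped reads with TopHat 1.4.1 to hg19 and computed values with Cuffdiff 2.2.0, and their methods name Ensembl release 65. The deposited table holds 1 FPKM and 1 estimated count per gene and group, with no statement of how libraries were pooled into a column. The authors' further columns (mean FPKM, fold change, status, p-value and FDR) were not used. The planned tests over libraries had no replicates to use and were not run.

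From these values log2 ratios of FPKM + 1 were computed where the mean FPKM reached 1. Ratios of count shares had 0.5 added to each count, and their intervals used the rounded counts with nothing added. GC content, exon length and shared 100-nt windows came from GENCODE release 44 on GRCh37. GC content was found for 96.8% of the genes past the filter. Of the positive estimated counts, 78.4% and 79.4% were whole within 0.0001. Alternatives were a pseudocount of 0.1, count shares, removal of a quadratic GC and length trend, centring, no filter, FPKM over 5 in a column, and rows of a symbol summed. Centred count shares and the count per FPKM with its 1.2-fold threshold were chosen after seeing the data. The members, the related lists and the motifs were chosen with earlier results of these data known. Named are all members, pseudogene rows past the filter, PCBP1 and PCBP2, and of each related list the genes past 2-fold, otherwise its highest and lowest. Outside this rule are SMN1 and SMN2, named as nearly identical copies, and SMU1. LSM11, RNPC3, DDX41, DHX15 and DHX8 are outside it too, named because they were at least 1.5-fold lower by count share. The functions were tested on simulated data. Tables were handled with pandas 2.3.3 and numpy 2.4.6 under Python 3.11.15, intervals came from scipy 1.17.1, sequences were read with pysam 0.24.0, and plots were drawn with matplotlib 3.10.9.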

Additional observations from a re-analysis of the deposited data

How the results depend on the processing

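No paired analysis was possible because each group has a single column, and for the same reason leaving out single replicates could not be run. A pseudocount of 0.1, centring, no filter, an FPKM over 5 in a column and summed rows left the medians of the list and of the particles and the counts past 1.5-fold and 2-fold near their values, and moved none of the single members beyond its counting interval (under an FPKM over 5, SNRPN dropped out, and with the pseudocount of 0.1 it passed 1.5-fold downward at -0.59, making 6 lower). Under count shares the median of the members was -0.11, 3 were higher by 1.5-fold and 3 lower by 2-fold, and the medians were -0.14 for the Sm ring, -0.65 for U2, -0.029 for LSm, 0.081 for U4/U6, -0.31 for U5, -0.35 for the tri-snRNP and B complex, -0.20 for U11/U12 and -0.16 for the Prp19 complex. With the GC and length trend removed, 5 members were higher and 3 lower by 1.5-fold, and the medians were 0.32 for the Sm ring, 0.089 for U1, -0.24 for U2 and 0.26 for the tri-snRNP and B complex. With count shares centred on the median, an alternative chosen after seeing the data, 1 member was lower by 2-fold, and the medians were 0.77 for U1 and -0.15 for the tri-snRNP and B complex. Of single members, 31 of 39 moved beyond their counting interval under count shares, 29 with the trend removed and 11 under centred count shares, and no value past 1.5-fold changed sign. Over all settings 15 members were above 0 throughout, 11 below 0 throughout and 13 on both sides. The causes were not tested. The spread between pools is unknown for every value, and depth limits SNRPN and LSM6 in particular, whose counts were under 100.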

Other observations

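Among the genes at least 1.5-fold past either way on the FPKM scale, 61.1% were higher in the KD column, and this share was 36.2% by count shares and 50.8% with the GC and length trend removed, so a count of members in 1 direction has a different background on each scale. Of the related genes, SMU1 of the B complex had 12.6 FPKM (KD column) and 25.9 FPKM (CTRL column) (log2 ratio -0.99), but -0.49 by count share, with a count per FPKM larger by 0.78 in log2. It was named after its values were seen.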
